A study of Arabidopsis thaliana with 6 samples.

Results

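PHT1;1 to PHT1;9 of Arabidopsis thaliana are the 9 genes of the PHT1 family of phosphate transporters. They were chosen by their locus identifiers from the 33617 genes of the deposited table. RNA-seq libraries were made from whole seedlings of 2 genotypes, 3 libraries each, with replicates numbered 0, 1 and 2. The wild type was Col-0, and cog1-2D is a mutant line made by activation tagging, a method that inserts enhancers to switch on a nearby gene, here COG1, a Dof-type transcription factor gene known from phytochrome signalling. All seedlings were untreated, 7 days old and raised in long days at 23 °C on MS medium. The labels do not say whether the replicates came from separate cultures, so each p-value measures the spread between these libraries only, which may be technical.

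PHT1 proteins sit in the plasma membrane and carry phosphate into the cell together with protons. Roots use them to take phosphate from the soil, and PHT1;1 and PHT1;4 are known as main uptake carriers of Arabidopsis roots. When phosphate is scarce, the MYB-type regulator PHR1 binds a promoter element named P1BS and raises many phosphate starvation genes, while SPX proteins restrain PHR1 when phosphate is plentiful. The protein PHF1 helps PHT1 carriers leave the endoplasmic reticulum, and the enzymes PHO2 and NLA mark them for degradation.

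Each library held between 10575945 and 11202122 fragments assigned to genes. Minus-strand genes were close to empty in every library. Over the 6 libraries, the median of the 13666 protein-coding nuclear genes of that strand was 1 fragment and 44.4% of them were at 0, against a median of 985 fragments and 14.4% at 0 for the 13777 genes of the plus strand. Minus-strand genes held 0.0301% of the fragments of wild type replicate 1 and between 0.139% and 0.169% of those of each other library. COG1 lies on the minus strand and had 0 fragments in every wild type library and 0, 3 and 3 in cog1-2D replicates 0, 1 and 2, too few to check the label. Among 10347 genes tested with edgeR's quasi-likelihood test, 36.3% were called at an adjusted p of at most 0.05, 16.3% as higher and 20.0% as lower in cog1-2D. The median log2 fold change of all tested genes was 0.003. The genotypes did not overlap (3 libraries above the other 3) for 49.8% of tested genes.

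Of the 9 PHT1 members, 6 lie on the minus strand and 3 on the plus strand. Members with at least 60 fragments over the 6 libraries count as measured, and 2 members passed: PHT1;2 with 1701 fragments and PHT1;4 with 2648. The former is the lowest member above the threshold, though far above it, and passed only through the cog1-2D libraries, since it held 53 fragments over the wild type libraries and 1648 over the mutant ones. The latter passed in either genotype, with 1782 fragments in the wild type and 866 in cog1-2D. PHT1;1 came nearest to the threshold from below, at 14 fragments, and the other 6 members had 0. A total of 0 allows up to 0.0462 CPM, or 3 of the 64931091 fragments counted, for counting error only. For the minus-strand members listed at 0, which are the last 5 of the family by number, this is no measure of absence, because 44.4% of all minus-strand genes were at 0.

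The family holds close copies, which bears on how fragments can be assigned. Of its 9 genes, 4 lie together on chromosome 5 of the reference TAIR10.1, within 24375 bases (chr5:17393598-17417972). The order there is AT5G43340 (PHT1;6, chr5:17393598-17395148, 1 exon) and AT5G43350 (PHT1;1, chr5:17399769-17402158, 3 exons) on the minus strand, then AT5G43360 (PHT1;3, chr5:17409524-17411214, 2 exons) and AT5G43370 (PHT1;2, chr5:17415698-17417972, 3 exons) on the plus strand. AT2G38940 (PHT1;4) lies apart, on the plus strand at chr2:16257157-16260253, with 2 exons. Within the cluster, AT5G43350 and AT5G43370 were the closest pair. Their coding sequences were identical at 97.7% of 1575 bases, differed at 36, and shared a run of 404 identical bases. AT5G43360 was less alike, with 89.2% identity to AT5G43370 and 89.85% to AT5G43350 over 1566 bases, while AT2G38940 was 70.7% identical to AT5G43370. The stretch of 90 coding bases (bases 295 to 384, counted from the A of the start codon) that differs most among these 3 tandem copies is shown to let the reader see how fragments can be told apart, with the 21 positions at which the copies are not all the same in capitals. It was read from the RefSeq annotation of TAIR10.1, 5′ to 3′ on the coding strand, which is the minus strand of chromosome 5 for the uppermost copy and the plus strand for the others.
PHT1;1: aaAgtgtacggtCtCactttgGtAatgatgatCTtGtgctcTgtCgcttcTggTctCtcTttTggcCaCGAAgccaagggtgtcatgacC
PHT1;2: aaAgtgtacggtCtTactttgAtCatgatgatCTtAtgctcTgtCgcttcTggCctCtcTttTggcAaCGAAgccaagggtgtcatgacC
PHT1;3: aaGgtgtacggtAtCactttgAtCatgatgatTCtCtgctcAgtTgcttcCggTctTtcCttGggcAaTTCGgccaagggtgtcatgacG
Outside such stretches the copies AT5G43350 and AT5G43370 often cannot be separated. Of all runs of 50 exonic bases of AT5G43370, 45.7% also occurred elsewhere in the genome, and of all runs of 100 bases 34.5% did. For AT5G43350 these shares were 42.5% and 31.6%, and for AT5G43360 they were 1.36% and 0%. No run of 50 exonic bases of AT2G38940 occurred elsewhere.

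PHT1;2, one of the root-expressed tandem copies, was close to undetected in the wild type and well expressed in cog1-2D. Its fragments numbered 19, 18 and 16 in wild type replicates 0, 1 and 2, and 551, 560 and 537 in the mutant replicates. Its level per gene length was 1.07, 1.015 and 1.04 FPKM in the wild type and 34.7, 36.6 and 33.1 FPKM in cog1-2D. Every mutant library stood far above every wild type library, and the libraries of a genotype lay close together. The means were 1.04 ± 0.0264 FPKM (SD, n = 3) in the wild type and 34.8 ± 1.75 FPKM (SD, n = 3) in cog1-2D. In the edgeR fit over all genes, PHT1;2 was 31.3-fold higher in the mutant, a log2 fold change of 4.97 ± 0.10 (SE), with an adjusted p of 4.95e-09. Only 35 of the 10347 tested genes rose more, which puts PHT1;2 at rank 36 by log2 fold change. Since it counts as measured only through its mutant level and the family was chosen with results known, its call and rank describe these libraries and are no independent support. Fragments of PHT1;1 that match both copies could also be counted at PHT1;2. Their part in the counts and fold change of PHT1;2 was not tested. In whole seedlings, fewer cells of a type and less RNA per cell cannot be told apart, here and for every gene below.

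PHT1;4, a main carrier of phosphate uptake by roots, fell by about 2-fold and was then below the risen tandem copy. Its level was 37.2, 25.5 and 25.8 FPKM in wild type replicates 0, 1 and 2 and 15.4, 12.5 and 16.3 FPKM in cog1-2D. The groups did not overlap, but wild type replicate 0 stood above the other wild type libraries. The means were 29.5 ± 6.67 FPKM (SD, n = 3) and 14.7 ± 1.99 FPKM (SD, n = 3). The edgeR fit gave a 2.02-fold lower level in cog1-2D, a log2 fold change of -1.01 ± 0.16 (SE) with an adjusted p of 0.00134, and 605 tested genes, this one included, fell at least as far. Without wild type replicate 0 the log2 fold change was -0.80 ± 0.11 (SE), with an adjusted p of 0.000575 by edgeR. The 2 measured members were thus called in opposite directions, which is no share to set against the 36.3% of all tested genes, since the family was chosen with these results known.

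**Figure D1:**
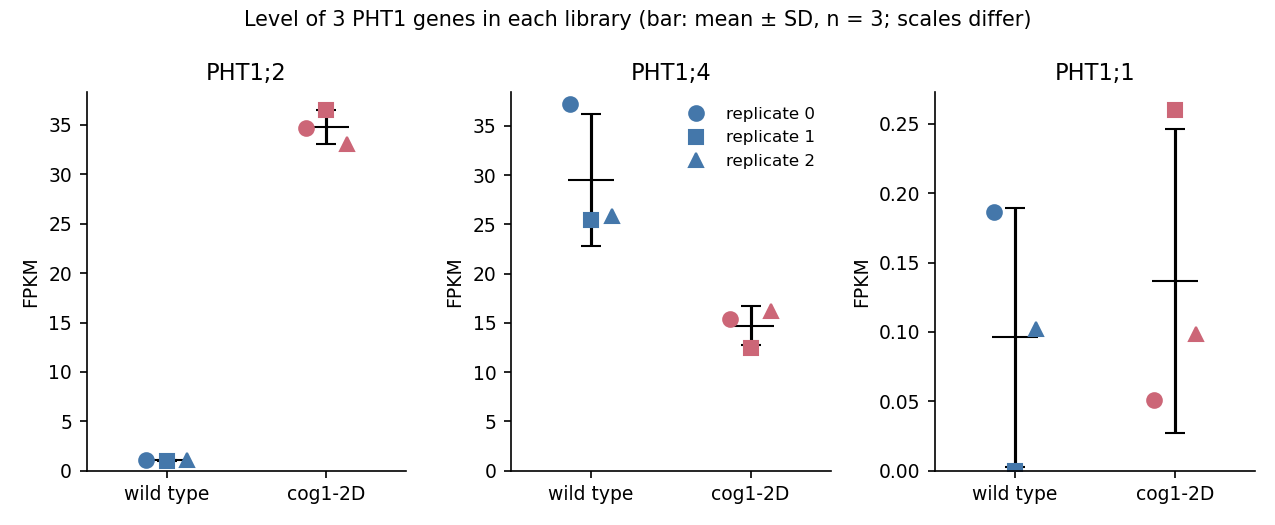
Level of PHT1;2, PHT1;4 and PHT1;1 in FPKM (vertical axes, which differ in scale) in each library of the wild type and cog1-2D. Points are libraries, marked by replicate number, and bars are the mean ± SD over 3 libraries. From the wild type to cog1-2D the mean goes from 1.04 to 34.8 FPKM in the left panel and from 29.5 to 14.7 FPKM in the middle one, and the groups overlap in the right one.

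PHT1;1, the other member with any fragments, is known as a main carrier of phosphate uptake in Arabidopsis roots. It had 4, 0 and 2 fragments in wild type replicates 0, 1 and 2 and 1, 5 and 2 in the cog1-2D replicates. The groups overlapped, at 0.0962 ± 0.0934 FPKM (SD, n = 3) in the wild type and 0.137 ± 0.110 FPKM (SD, n = 3) in cog1-2D. Of all minus-strand genes, 8.25% had at least as many fragments as its 14. It did not pass the filter on low counts. In the fit without that filter its log2 fold change was 0.41 ± 1.01 (SE), with an edgeR adjusted p of 0.846, so a difference was not detectable at these counts.

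The 3 tandem copies PHT1;1 to PHT1;3 were also summed, since fragments can be shared among them. The sum is almost only the PHT1;2 count, since PHT1;1 lies on the near-empty minus strand and PHT1;3 was at 0. Fragments placed at PHT1;1, unique or shared, may thus be missing from it. It therefore still depends on how shared fragments were divided, and it is no full total of the copies. The sum was 23, 18 and 18 fragments in the wild type and 552, 565 and 539 in cog1-2D, with no overlap. Entered as a single row in place of the 3 genes, the sum was 28.3-fold higher in cog1-2D, a log2 fold change of 4.82 ± 0.11 (SE) with an edgeR adjusted p of 7.29e-09. This row holds nearly the same fragments as PHT1;2 and is high only in cog1-2D. Its call is therefore a description and no independent support. PHT1;2 held 82.6%, 100% and 88.9% of these fragments in wild type replicates 0, 1 and 2, and the exact (Clopper-Pearson) 95% intervals ran from 61.2% to 95.05%, from 81.5% to 100% and from 65.3% to 98.6%. It held 99.8%, 99.1% and 99.6% in cog1-2D. The mean share was 90.5 ± 8.81% (SD, n = 3) in the wild type and 99.5 ± 0.364% (SD, n = 3) in the mutant. AT5G43350 lies on the near-empty minus strand and AT5G43360 was at 0, so this share was bound to be high and says nothing of how the copies compare. AT5G43360, the plus-strand copy whose exons are almost all unique at 50 bases, had 0 fragments in every library.

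Of the 2 measured members, a different one was the more abundant in each genotype. The log2 ratio of PHT1;2 to PHT1;4 in FPKM was -5.12, -4.65 and -4.64 in wild type replicates 0, 1 and 2 and 1.17, 1.55 and 1.03 in cog1-2D. The ratio was below 0 in every wild type library and above 0 in every mutant library. The mean log2 ratio rose from -4.80 ± 0.28 to 1.25 ± 0.27 (SD, n = 3 each), a difference of 6.05. This pair was chosen with both changes known, so the difference is a description, with no test. The counts at PHT1;2 may include fragments shared with PHT1;1. Of the summed FPKM listed for the family, in which the 6 minus-strand members are in effect not measured, PHT1;2 made up 2.78% to 3.85% in the wild type libraries and 66.9% to 74.2% in the mutant ones. That sum was 38.5, 26.5 and 27.0 FPKM in the wild type and 50.2, 49.3 and 49.4 FPKM in cog1-2D, without overlap. Its mean was 30.7 ± 6.77 FPKM (SD, n = 3) in the wild type and 49.6 ± 0.476 FPKM (SD, n = 3) in cog1-2D, a ratio of 1.62. In fragments the genotypes overlapped, at 815, 505 and 521 in the wild type and 853, 803 and 866 in cog1-2D, a ratio of 1.37. In CPM they did not overlap, and the ratio was 1.4.

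The authors' deposited table of changed genes lists 3124 genes, the 2 measured members among them. In the authors' deposited table PHT1;2 goes from 1.04 to 34.8 FPKM, a log2 fold change of 5.06, and PHT1;4 from 29.5 to 14.7 FPKM, a log2 fold change of -1.004. Each has a q-value of 0.000349 in the authors' deposited table, the lowest there, which 1516 genes share.

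The promoters of the 2 measured members are shown because these members moved in opposite directions. Each is the 300 bases before the gene's start, 5′ to 3′ on the coding strand, from the RefSeq assembly TAIR10.1: chr5:17415398-17415697 (plus strand) for PHT1;2 and chr2:16256857-16257156 (plus strand) for PHT1;4. Capitals mark a match to P1BS, the element bound by PHR1, spelled GNATATNC and searched on both strands, where it reads the same.
PHT1;2: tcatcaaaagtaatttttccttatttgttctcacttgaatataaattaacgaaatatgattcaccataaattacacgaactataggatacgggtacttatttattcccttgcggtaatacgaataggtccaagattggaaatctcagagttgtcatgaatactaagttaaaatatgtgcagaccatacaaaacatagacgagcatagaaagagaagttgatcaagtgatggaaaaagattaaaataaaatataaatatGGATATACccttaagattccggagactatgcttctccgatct
PHT1;4: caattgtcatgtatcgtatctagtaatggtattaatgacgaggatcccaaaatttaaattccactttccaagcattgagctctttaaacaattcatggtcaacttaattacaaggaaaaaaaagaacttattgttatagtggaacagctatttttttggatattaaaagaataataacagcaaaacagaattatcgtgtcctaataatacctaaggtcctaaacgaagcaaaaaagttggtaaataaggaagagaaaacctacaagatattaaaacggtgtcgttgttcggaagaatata
The P1BS match of PHT1;2 began 42 bases before the gene's start, and the PHT1;4 window held no full match. The last bases of the PHT1;4 window, gaatata, match P1BS up to its final C, which would fall beyond the window. Matches that cross the gene's start were not searched, so a site there is not excluded. P1BS letters occurred in the same window of 6.50% of 27443 promoters of protein-coding nuclear genes. Over 1000 bases, which end at the same edge, 20.3% of all promoters held a full match. So did 7 of the 9 members, all but PHT1;4 and PHT1;9. The second match of PHT1;2 began 569 bases before its start.

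The core letters of Dof sites, AAAG on either strand, are so common that 98.96% of the 300-base promoters held them, with a median of 5 matches and a range from the 5th to the 95th percentile of 1 to 9. Of the windows shown, the upper held 3 and the lower 5, within that range. The W box core bound by WRKY factors, TTGAC on either strand, was in 50.4% of promoters. It occurred 1 time in the lower window and 0 times in the upper. Over 1000 bases it occurred 3 times for PHT1;2 and 4 times for PHT1;4. Both lie within the range from the 5th to the 95th percentile of all promoters, 0 to 5.

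Other phosphate genes were read from lists that hold the regulators, the carriers of other families and the starvation genes. By edgeR, 23 of these genes were tested, none on the minus strand. Over these lists 2 were called higher and 5 lower in cog1-2D. The 7 calls of 23 are no larger a share than the 36.3% of all tested genes. Without cog1-2D replicate 1 the lower calls numbered 2, and without wild type replicate 0 the higher calls numbered 8. Over all genes these fits gave 1554 lower and 1404 higher calls, against 2066 and 1686 with all libraries. The 8 include PHT5;2, which was tested only without wild type replicate 0. Among 19 regulators and signalling genes, 9 were tested, 1 rose, 2 fell and 6 did not pass, with a median log2 fold change of -0.10 beside 0.003 for all tested genes. MYB62, a repressor of phosphate starvation genes, rose from 1.33 to 3.52 CPM (log2 fold change 1.40 ± 0.31 SE, edgeR adjusted p = 0.00742). LPR1, a ferroxidase of the root's response to low phosphate, fell from 8.38 to 3.402 CPM (log2 fold change -1.30 ± 0.20 SE, edgeR adjusted p = 0.000969). IPK1, a kinase of inositol phosphate synthesis, fell from 56.0 to 42.1 CPM (log2 fold change -0.41 ± 0.07 SE, edgeR adjusted p = 0.00134). The 3 libraries of one genotype lay apart from those of the other for 6 of the 9, against 49.8% of all tested genes. PHR1 with 5 fragments in all was among the 9 minus-strand regulators that were not tested.

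Of the genes that act on PHT1 proteins, NLA, the ubiquitin ligase that marks PHT1 carriers for degradation, was the tested one of 3. It rose from 35.8 to 50.1 CPM (log2 fold change 0.49 ± 0.10 SE, edgeR adjusted p = 0.00459). PHF1 and PHO2 are on the minus strand, with 1 and 16 fragments in all, and were not tested. Of the PHO1 family, which exports phosphate, 1 of 6 was tested and did not pass: PHO1;H3 had a log2 fold change of -0.07 ± 0.11 (SE, edgeR adjusted p = 0.655), and without cog1-2D replicate 2 its sign turned to 0.04. DESeq2 and limma called 0 of this family, and 0 had an unadjusted p under 0.05. DESeq2 tested 4, but all except PHO1;H3 are minus-strand genes with at most 19 fragments in all, where a call was hardly possible. Of 13 carriers of other families, edgeR tested 2, DESeq2 11 and limma 3, and each called 0. Beyond PHT2;1, PHT3;3 and PHT5;2, those tested by DESeq2 are minus-strand genes with at most 61 fragments in all. Their lack of calls therefore says little. At an unadjusted p under 0.05 the counts were 1, 2 and 0. PHT2;1, the phosphate carrier of the chloroplast envelope, was at 830 CPM in the wild type and 711 CPM in cog1-2D (log2 fold change -0.22 ± 0.09 SE, edgeR adjusted p = 0.0823), but it was called lower without cog1-2D replicate 0 (adjusted p = 0.0375), with the replicate block (0.0129) and without the low-count filter (0.0105). PHT3;3, of the mitochondrial family, had a log2 fold change of -0.14 ± 0.15 (SE, edgeR adjusted p = 0.502).

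**Figure D2:**
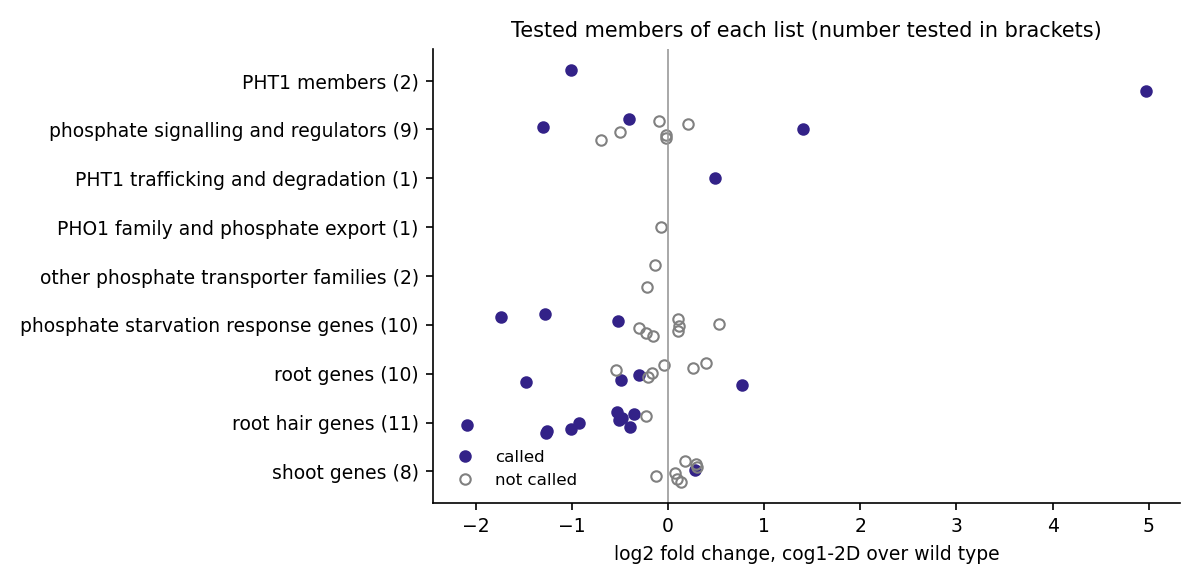
Change in cog1-2D relative to the wild type on the log2 scale (horizontal axis) for each tested member of the PHT1 family, the phosphate lists and the organ lists (rows, number tested in brackets). Each point is a gene, filled where called at an adjusted p of at most 0.05. PHT1;2 at 4.97 lies beyond every other gene shown, and 10 of the 11 tested root hair genes are called lower.

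Of 20 phosphate starvation response genes, which act in lipid remodelling, phosphate scavenging and signalling, 10 were tested, 0 rose, 3 fell and 7 did not pass, against 36.3% called among all tested genes. DESeq2 and limma on log2(FPKM + 1) also called 0 higher, and with each tool 1 gene pointed up at an unadjusted p under 0.05. DESeq2 tested 16, and those beyond the 10 are minus-strand genes with at most 33 fragments in all. By edgeR the gene that pointed up was PLDZ2, a phospholipase, with a log2 fold change of 0.53 ± 0.20 (SE, adjusted p = 0.0644). The median log2 fold change was -0.19, beside 0.003 for all tested genes, and 4 of the 10 had groups that did not overlap, against 49.8% of all tested genes. PPCK1, a kinase of phosphoenolpyruvate carboxylase, fell from 51.0 to 35.7 CPM (log2 fold change -0.52 ± 0.13 SE, edgeR adjusted p = 0.0115). RNS1, a secreted ribonuclease, fell from 3.20 to 0.954 CPM (log2 fold change -1.74 ± 0.52 SE, edgeR adjusted p = 0.0293). PAP17, an acid phosphatase, fell from 33.2 to 13.7 CPM (log2 fold change -1.29 ± 0.40 SE, edgeR adjusted p = 0.0336). Each of these calls was lost when some library was left out, with adjusted p-values of up to 0.0535 for PPCK1, without cog1-2D replicate 1, 0.0950 for RNS1, without wild type replicate 0, and 0.105 for PAP17, without cog1-2D replicate 1. RNS1 was also lost without cog1-2D replicate 0 or 1, and PAP17 when any of the cog1-2D replicates was left out. Without wild type replicate 0 the log2 fold change of PAP17 shrank to -0.57 ± 0.11 (SE, edgeR adjusted p = 0.00437).

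Wild type replicate 0 stood apart in these genes. Of the 10 tested starvation response genes, 8 had their highest level there, against 23.2% of all tested genes (2398 of 10347). The ratio of wild type replicate 0 to the mean of wild type replicates 1 and 2 had a median of 1.75 over the 10 genes, from 1.05 to 2.98, and of 1.002 over all tested genes. PHT1;4 had a ratio of 1.47 and its highest level there, while PHT1;2 had a ratio of 1.03. SPX1, the restrainer of PHR1, was at 53.0, 19.9 and 19.4 CPM in wild type replicates 0, 1 and 2 and at 20.0, 20.1 and 17.3 CPM in cog1-2D. PAP17 was at 59.0, 21.3 and 19.2 CPM in the wild type and at 14.7, 12.6 and 13.8 CPM in cog1-2D, and AT4, a noncoding RNA of the starvation response, at 89.3, 33.7 and 35.6 CPM and at 43.1, 39.7 and 53.0 CPM. Without wild type replicate 0, 8 genes of the phosphate lists were called higher and 4 lower. Over all genes that fit called 1404 higher and 1813 lower, against 1686 and 2066 with all libraries. This library was singled out because these genes were high in it, so the added calls are no independent support. The added higher calls, by edgeR, were PLDZ2 (log2 fold change 0.82 ± 0.14 SE, adjusted p = 0.00230) and MGD3 (0.85 ± 0.26 SE, 0.0371), of lipid remodelling, SQD1 (0.21 ± 0.06 SE, 0.0297), of sulfolipid synthesis, AT4 (0.38 ± 0.12 SE, 0.0410), VIH1 (0.27 ± 0.09 SE, 0.0424) and PHT5;2 (2.01 ± 0.63 SE, 0.0407), a vacuolar carrier tested only in that fit. RNS1 was no longer called, and PHT1;2 had a log2 fold change of 4.98 ± 0.13 (SE).

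**Figure D3:**
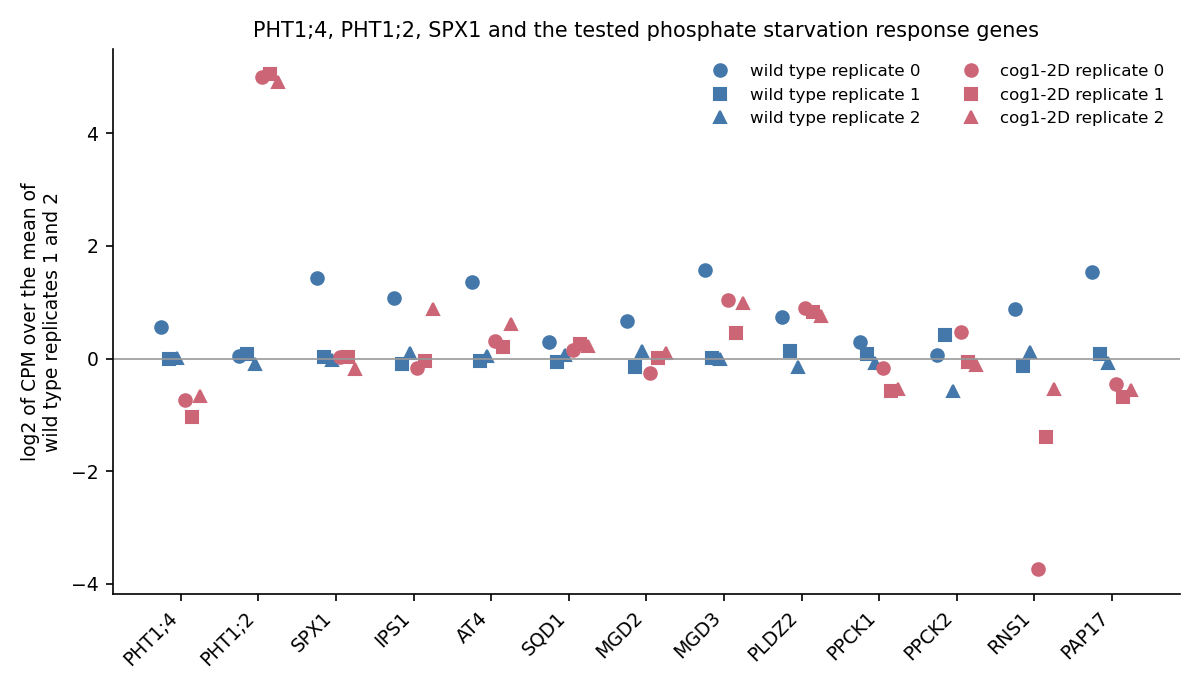
Level of PHT1;4, PHT1;2, SPX1 and the 10 tested phosphate starvation response genes in each library, as log2 of the CPM over the mean of wild type replicates 1 and 2 (vertical axis). Colours mark the genotype and shapes the replicate number. Wild type replicate 0 (blue circles) lies above wild type replicates 1 and 2 for PHT1;4, SPX1, PAP17 and AT4, while PHT1;2 is near 5 in all 3 cog1-2D libraries.

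Since PHT1 genes act mainly in roots, root, root hair and shoot genes were read in the same libraries. These lists, too, were chosen with earlier results of these data known. Their shares below are therefore descriptions and no independent support. Of 13 root hair genes, 11 were tested, 0 rose (0 also by DESeq2 and limma, and 0 at an unadjusted p under 0.05) and 10 fell, with a median log2 fold change of -0.53 and 10 of 11 without overlap, against 20.0% called lower and 49.8% without overlap among all tested genes. PRP1, a wall protein of root hairs, changed by -2.09 ± 0.19 (log2, SE), RHD6 and RSL4, which drive root hair growth, by -1.27 ± 0.20 and -1.26 ± 0.31, and EXPA7, a root hair expansin, by -1.01 ± 0.11. The summed level of the root hair list ran from 187 to 195 FPKM in the wild type and from 119 to 126 FPKM in cog1-2D, with 1 member at 0. Of 14 root genes, 10 were tested, 1 rose, 3 fell and 6 did not pass, near the 36.3% called among all tested genes, and the median log2 fold change was -0.19. TIP4;1, a tonoplast aquaporin, changed by 0.77 ± 0.07, HKT1, a sodium carrier, by -1.48 ± 0.15, PIN2, an auxin carrier, by -0.49 ± 0.10, and SCR, a regulator of the endodermis, by -0.30 ± 0.09. The summed level of the root list overlapped between genotypes, from 287.6 to 414.6 FPKM in the wild type and from 350.2 to 525.4 FPKM in cog1-2D, with 1 member at 0. IRT1, an iron carrier, held most of that sum, with 169.9 to 296.4 FPKM in the wild type and 216.1 to 395.9 FPKM in cog1-2D. Of 8 shoot genes, all passed the filter, but 4 are minus-strand genes, whose levels were low in wild type replicate 1 (RBCS1A was at 48.2, 8.93 and 53.7 CPM in the wild type replicates). Of the plus-strand ones, 1 rose: GAPB, a chloroplast enzyme, by 0.28 ± 0.06. The calls of SCR and RSL4 were lost when a library was left out, with edgeR adjusted p-values of up to 0.0873 for SCR, without cog1-2D replicate 2 (also without cog1-2D replicate 1 or wild type replicate 0), and 0.0594 for RSL4, without cog1-2D replicate 1. The part of these organ differences in the PHT1 results was not tested.

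The genes whose log2 CPM followed that of PHT1;4, the measured member with most fragments, most closely over the 6 libraries were UGT71B1, a glucosyltransferase gene, with a Pearson r of 0.997, AT2G36580, of the pyruvate kinase family (0.997), AT3G16780, of the ribosomal protein L19e family (0.997), CYCH;1, a cyclin (0.996), and ADT1, an arogenate dehydratase (0.995). They were the top 5 of 9591 genes, of which 986 (10.3%) had an r of at least 0.9, and all points share the same 6 libraries. UGT71B1 was at 49.9, 37.4 and 39.3 CPM in the wild type and at 25.3, 21.8 and 25.4 CPM in cog1-2D. Its highest value, too, was in wild type replicate 0.

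The surroundings of the tandem cluster were read after the values had been seen. The measured gene directly before the cluster, c-NAD-MDH2, a malate dehydrogenase 0.857 kb away, had a log2 fold change of -0.01 ± 0.06 (SE, edgeR adjusted p = 0.959), and its sign turned to 0.015 with upper-quartile factors. The measured gene directly after it, AT5G43420, of the RING/U-box family and 33.5 kb away, fell (log2 fold change -1.96 ± 0.18 SE, edgeR adjusted p = 4.52e-05). Neither measured neighbour of the cluster was called higher. Within 200 kb of the cluster, 36 genes were tested, 6 were called higher and 15 lower, which is 58.3% called against 36.3% of all tested genes. Changes of at least 4-fold made up 13.9% of these, against 3.30% of all tested genes. Around PHT1;4, 48 genes were tested within 200 kb, 12 were called higher and 8 lower (41.7%), and 2.08% changed by at least 4-fold. The shares around both places include genes that passed the filter on low counts only through the genotype where they are high. They are therefore a description and no independent support.

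The genes near the cluster with changes of at least 4-fold were RPP8, higher in cog1-2D, and 4 lower ones. RPP8, a disease resistance gene of the CC-NBS-LRR class on the minus strand, 44.6 kb from the cluster, had 7 fragments in the wild type and 185 in cog1-2D (log2 fold change 4.67 ± 0.45 SE, edgeR adjusted p = 5.74e-05). It passed the filter on low counts only through the cog1-2D libraries, and 1.16% of minus-strand genes held at least 60 fragments. Its call is therefore a description and no independent support. AT5G43740 and AT5G43730, of the same class and 146.7 and 142.2 kb away, had 479 and 615.6 fragments in the wild type and 2 and 26 in cog1-2D. NPQ6, 124.4 kb away, had 1034 and 47, and AT5G43120 had 37 and 5. Of these lower genes, all but NPQ6 passed the filter only through the wild type libraries, so their calls too are descriptions. Next to PHT1;4, NF-YB1, 16.3 kb before it, had a log2 fold change of -0.06 ± 0.09 (SE, edgeR adjusted p = 0.603), and AT2G38950, 0.55 kb after it and annotated as a jumonji-type gene, fell by 0.28 on the log2 scale (SE 0.05, edgeR adjusted p = 0.00302).

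**Figure D4:**
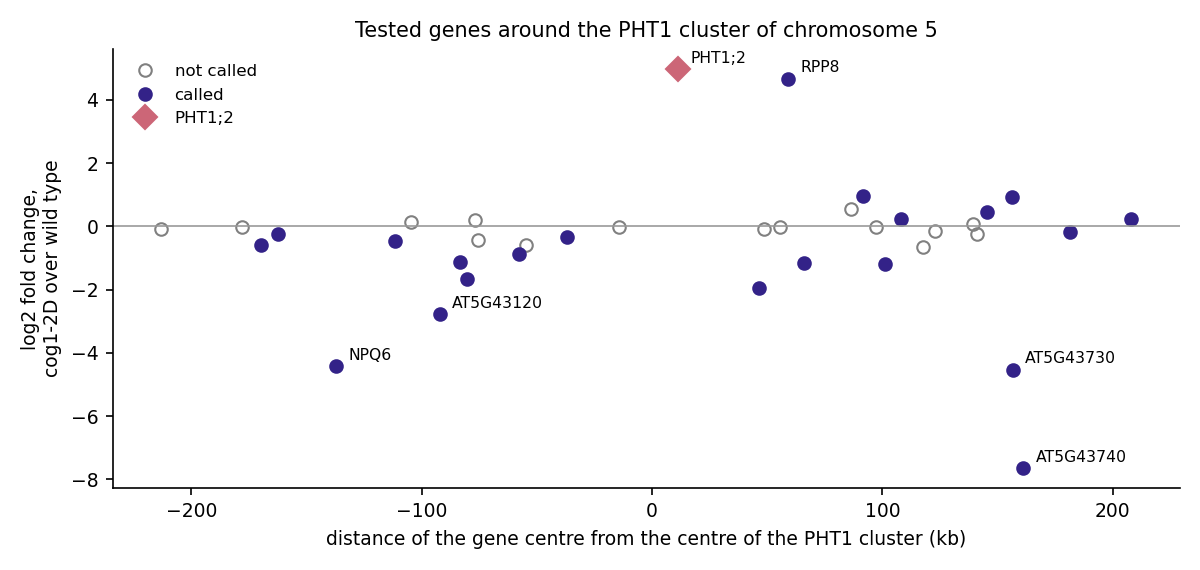
Change in cog1-2D relative to the wild type on the log2 scale (vertical axis) of the tested genes within 200 kb of the PHT1 cluster of chromosome 5, by distance of the gene's centre from the centre of the cluster in kb (horizontal axis). Filled points were called at an adjusted p of at most 0.05, and the diamond is PHT1;2. PHT1;2 and RPP8 lie above 4, and AT5G43740, AT5G43730 and NPQ6 lie below -4.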

How the data were processed

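The deposited table of all genes holds, per the file headers, expected counts of fragments and FPKM (fragments scaled by gene length and library size) per library. Per the submitters' processing notes, Cuffdiff, Cufflinks 2.2.1, HISAT2 2.1.0 and Trimmomatic 0.36 were used with TAIR10. Libraries were made with a stranded kit, per the labels, and the strand setting of the counting is not given in the sources used here. Of the deposited expected counts, 98.1% were whole within 1e-06. A workbook of the authors gives FPKM, log2 fold changes, p-values and q-values per gene, per the file headers.

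Expected counts were rounded and compared with edgeR 4.0.16 in R 4.3.3: filterByExpr, TMM factors, quasi-likelihood test, genotype as the only term, and Benjamini-Hochberg adjustment over all 10347 genes passing the filter. CPM is scaled with TMM factors. Binomial intervals were computed in scipy 1.17.1. Alternatives were upper-quartile and RLE factors, other filters, robust dispersion, DESeq2 1.42.0, a replicate block, each library left out, and limma 3.58.1 on log2 FPKM with pseudocounts of 1 and 0.1. Of the table's genes, 32225 matched a locus tag of TAIR10.1, whose coordinates are given.

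The members and lists were chosen with earlier results of these data known. The rule named all members, from each list the 4 called genes that changed most or else the 2 of smallest p, the 5 genes most like PHT1;4 and the nearest measured neighbours. SPX1, AT4, PLDZ2, IRT1, RBCS1A, the genes called without wild type replicate 0, the untested genes and those within 200 kb were named after their values were seen.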

Additional observations from a re-analysis of the deposited data

How the results depend on the processing

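PHT1;2 was called higher under each of 17 alternatives, with log2 fold changes from 4.13 to 5.01, and PHT1;4 lower under each of 18, from -1.11 to -0.80. Leaving out 1 library gave 4.92 to 5.01 and -1.11 to -0.80. The summed tandem copies ran from 4.07 to 4.91 (4.78 to 4.91 with 1 library left out). The difference in the share of PHT1;2 ran from 5.08 to 13.8 percentage points and the difference in log2 ratio from 5.89 to 6.16. With thresholds of 30 or 120 fragments, 2 members counted as measured. Over all genes, 1129 to 1488 higher and 1554 to 1890 lower calls were made with 1 library left out. The split of 1686 higher and 2066 lower calls became 1896 and 1936 with upper-quartile factors. Testing plus-strand genes only, an alternative chosen after seeing the data, gave 1706 and 2128.

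In the phosphate lists, the higher calls numbered 1 with a mean of at least 50 fragments and 2 to 8 with 1 library left out, the highest without wild type replicate 0. The lower calls numbered 2 to 5 with 1 library left out, 3 with limma on log2(FPKM + 0.1) and 2 with limma on log2(FPKM + 1) without a filter. With 1 library left out, the log2 fold change of PHO1;H3 ran from -0.1435 to 0.0376, above 0 without cog1-2D replicate 2, and that of c-NAD-MDH2 from -0.0539 to 0.0242, above 0 in 4 of the 6 cases. The latter also turned to 0.0154 with upper-quartile factors, 0.00449 with limma on log2(FPKM + 1), with or without a filter, and 0.00456 with a pseudocount of 0.1. The cause was not tested. Limma without a filter did not call GAPB, PPCK1 (adjusted p = 0.0517), SCR (0.0832) or RNS1 (0.0852), limma with a pseudocount of 0.1 did not call RNS1 (0.0640), and PAP17 was not called by DESeq2, limma or the robust fit.

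The fit with the replicate number as a block gave 1863 higher and 2230 lower calls, 4.97 for PHT1;2 and -1.001 for PHT1;4. The deviations of same-numbered libraries had correlations of -0.0146, -0.0162 and 0.106, and those of unlike-numbered ones ran from -0.2 to 0.164. The labels name no shared batch either, so the numbers were not taken to pair the libraries. Of the 7 unmeasured members, 6 lie on the minus strand, where 1.16% of genes held at least 60 fragments against 72% on the plus strand at the same depth.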
